A study of Mus musculus with 6 samples.

Results

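The control group of the series held the 3 libraries of mouse splenic B cells that carried the empty retroviral vector pMIR, out of 6 libraries in all. They were chosen by their sample titles alone, and every one of the 37620 Ensembl mouse genes in the deposited count table was read in them. The B cells came from C57Bl/6 mice aged 4 months. The culture medium held 1 µg/ml of anti-CD40 and 12.5 µg/ml of IL-4. Infections took place at 24 h and 48 h, and mCherry, the vector's fluorescent marker, was used to sort the cells at 96 h. All 3 libraries thus come from stimulated, infected and sorted cells, and no unstimulated or uninfected culture was among the samples used here. Whether replicates were separate animals or cultures is not stated, so an SD over n = 3 measures the spread between these libraries, which may be technical. The levels below describe 1 group. No groups were compared, no gene was tested, and no p-value is given.

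CD40 is a receptor of the TNF receptor family. T cells engage it through CD40 ligand, and it signals through TRAF adaptors to NF-κB. The IL-4 receptor signals through JAK kinases to STAT6. Given together to resting B cells in culture, both signals are known to drive growth and division, and to direct class switch recombination from IgM towards IgG1 and IgE. In this process the switch regions are cut, and the variable region is then joined to another constant gene.

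Gene counts came to 27692437, 21672921 and 21421769 in replicates 1 to 3, which were 51.9 to 53.2% of the table's totals. Levels are counts per 1000000 gene counts of the library (CPM), which is a relative measure. In a bulk library, fewer cells of a type and less RNA per cell cannot be told apart. Levels of different genes were compared per kilobase of exon length (CPM per kb), and ranks by CPM order genes by their counts alone. A gene was called expressed at 1 CPM or more in each library, abundant at 100 CPM or more in each, and silent at 0 counts in all 3. A count of 0 allows up to 3 counts, which is 0.108, 0.138 and 0.140 CPM in replicates 1 to 3 and covers counting error only.

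The sequences of promoters that go with the gene groups described below are given first. They are stretches of the RefSeq promoter windows on build GRCm38.p6, written 5′ to 3′ on the gene's strand in lower case, each ending at the base before the annotated start. Motifs were searched in the 250 bases before each start, in 32851 windows. By symbol 16212 counted genes matched a window, among them 7719 of the 11187 expressed genes. A match to a motif is a description of letters and not a binding site or a cause. The first set belongs to MHC class II genes and shows in capitals the CCAAT box, searched as CCAAT on both strands, so that a match on the other strand reads ATTGG. None of the motif matches shown here overlapped a match of another motif that was searched. The CCAAT box was found in 33.9% of all windows and in 8 of the 10 windows of MHC class II genes. The H2-Aa stretch is chr17:34287824-34287943 on the minus strand, with the match 48 bases before the start.
H2-Aa: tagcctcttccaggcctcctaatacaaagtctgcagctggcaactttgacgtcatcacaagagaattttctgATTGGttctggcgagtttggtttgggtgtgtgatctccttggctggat
The H2-Eb1 stretch is chr17:34305747-34305866 on the plus strand, with matches 59 and 35 bases before the start.
H2-Eb1: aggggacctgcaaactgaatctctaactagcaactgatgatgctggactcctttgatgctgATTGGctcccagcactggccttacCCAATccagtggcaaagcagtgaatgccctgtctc
The H2-Ob stretch is chr17:34238785-34238904 on the plus strand, with the match 57 bases before the start.
H2-Ob: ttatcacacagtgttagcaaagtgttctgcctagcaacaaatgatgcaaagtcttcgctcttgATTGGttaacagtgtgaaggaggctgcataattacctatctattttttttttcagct

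The next set belongs to genes of mitosis, whose windows held CCAAT in 18 of 21 cases, against 15 of 26 for the genes of DNA replication. Ccnb1 encodes cyclin B1, the partner of the mitotic kinase CDK1, and its stretch is chr13:100786487-100786606 on the minus strand, with matches 99 and 67 bases before the start.
Ccnb1: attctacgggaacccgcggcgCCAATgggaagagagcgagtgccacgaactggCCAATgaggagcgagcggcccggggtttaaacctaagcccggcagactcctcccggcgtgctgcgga
Cdc20 encodes an activator of the anaphase-promoting complex, and its stretch is chr4:118437344-118437463 on the minus strand, with matches 53 and 8 bases before the start.
Cdc20: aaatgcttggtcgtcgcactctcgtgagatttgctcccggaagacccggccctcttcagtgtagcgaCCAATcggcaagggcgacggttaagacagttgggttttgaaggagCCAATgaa

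A pair of GAAA with 2 bases of any kind between them, the spacing of interferon response elements, was searched on both strands, and overlapping matches were counted. It was found in 2.98% of all windows and in 10 of 23 windows of the type I interferon list. Isg15 encodes a ubiquitin-like modifier, and its stretch is chr4:156200819-156200938 on the minus strand, with overlapping matches 78, 72 and 66 bases before the start.
Isg15: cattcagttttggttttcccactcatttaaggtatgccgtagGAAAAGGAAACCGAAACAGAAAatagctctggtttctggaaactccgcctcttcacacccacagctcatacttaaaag
Rsad2 encodes the antiviral protein viperin, and its stretch is chr12:26456453-26456572 on the minus strand, with the match on the other strand, 120 bases before the start.
Rsad2: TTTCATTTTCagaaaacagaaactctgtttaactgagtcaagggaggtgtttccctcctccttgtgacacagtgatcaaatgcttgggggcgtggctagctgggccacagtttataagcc
Fcer2a encodes CD23, the low-affinity IgE receptor, and is a known target of IL-4. TTC and GAA with 4 bases of any kind between them, the spacing that STAT6 is known to favour, reads the same on both strands and was found in 5.85% of all windows. In the windows of the IL-4 and STAT6 list it was found in 2 of 30, or 6.67%, near that share. It occurred in the window of the second of 3 annotated Fcer2a starts, in chr8:3690862-3691041 on the minus strand, 168 bases before the start.
Fcer2a: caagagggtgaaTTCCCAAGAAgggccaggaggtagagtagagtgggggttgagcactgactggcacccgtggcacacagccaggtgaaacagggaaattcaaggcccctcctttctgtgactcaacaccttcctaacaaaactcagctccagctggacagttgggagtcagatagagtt

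The last pair are the genes of the translation elongation factor eEF1A, shown for their CpG dinucleotides (CG, which reads the same on both strands). Eef1a1 is the widely used form, and its stretch, chr9:78481725-78481874 on the minus strand, holds 11 CpG.
Eef1a1: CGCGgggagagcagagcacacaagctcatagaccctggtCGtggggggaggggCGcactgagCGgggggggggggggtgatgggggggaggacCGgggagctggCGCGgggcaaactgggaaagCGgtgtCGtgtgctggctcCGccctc
Eef1a2 is the form of muscle and neurons, and its stretch, chr2:181157016-181157165 on the minus strand, holds 4 CpG.
Eef1a2: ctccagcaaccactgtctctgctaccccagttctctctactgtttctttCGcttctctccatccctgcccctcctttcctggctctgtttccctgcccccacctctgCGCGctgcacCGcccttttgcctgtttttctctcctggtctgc
Eef1a1 stood at 10674, 11192 and 10728 CPM, the second highest mean of all genes. Eef1a2 had 1 count in each library, so these 2 genes lie at opposite ends of the range of levels.

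The transcriptome was led by genes of translation, the mitochondrial genome, antigen presentation and the cytoskeleton. Of the 37620 genes, 11187 (29.7%) were expressed, 2044 (5.43%) were abundant and 17424 (46.3%) were silent, with 9009 low genes in between. Among the 20195 protein-coding genes, 10409 (51.5%) were expressed, 2024 abundant and 4864 (24.1%) silent, and they took 97.5% of the counts. The share of all genes set beside each list below includes non-coding genes and pseudogenes. For lists of protein-coding genes, the protein-coding share is the closer base. Of 1070 lincRNA genes 41 were expressed, and of 1516 antisense genes 64. The counting is not stated to use strand in the sources used here, so antisense and overlapping genes are uncertain. Genes described here that overlap a named neighbour in the reference include Stat6, Nfkb2, Cd27, Cxcr5, Ciita, B2m, Junb and Ccnd3. So do Cdk4, Cdc20, Aldoa, Shmt2, Ucp2, Mzb1, Ddit3 and Sox2. Others, such as Il4ra, Il2rg, Plcg2 and Foxo1, overlap only genes with the Gm symbols of predicted genes. The median expressed gene stood at 33.7, 33.3 and 33.7 CPM.

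The 100 most counted genes took 21.1, 22.3 and 22.6% of the counts in replicates 1 to 3, and the 1000 most counted took 55.1, 55.7 and 55.8%. The highest mean level was that of mt-Co1, a mitochondrially encoded subunit of cytochrome c oxidase, at 11545, 16034 and 16130 CPM. Replicate 1 was the lowest for mt-Co1, and the other libraries were alike. Eef1a1 followed, and then Cd74, the invariant chain that escorts MHC class II molecules, at 7896, 8926 and 9343 CPM. Actb, the cytoskeletal beta-actin, stood at 7132, 6700 and 7239 CPM. Eef2, which moves the ribosome along the message, stood at 6157, 6495 and 6054 CPM. Ighm, the IgM heavy chain constant gene, was ninth, at 3707, 4862 and 4068 CPM. Pkm2, the symbol the table uses for pyruvate kinase of the M type, stood at 3790, 3320 and 3635 CPM and Aldoa, an aldolase, at 2870, 2761 and 2907 CPM. The SD was 2.66% of the mean for Aldoa, 3.70% for Eef2 and 4.07% for Actb, against 18.0% for mt-Co1, so the libraries differed more in the mitochondrial message than in these 3.

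**Figure D1:**
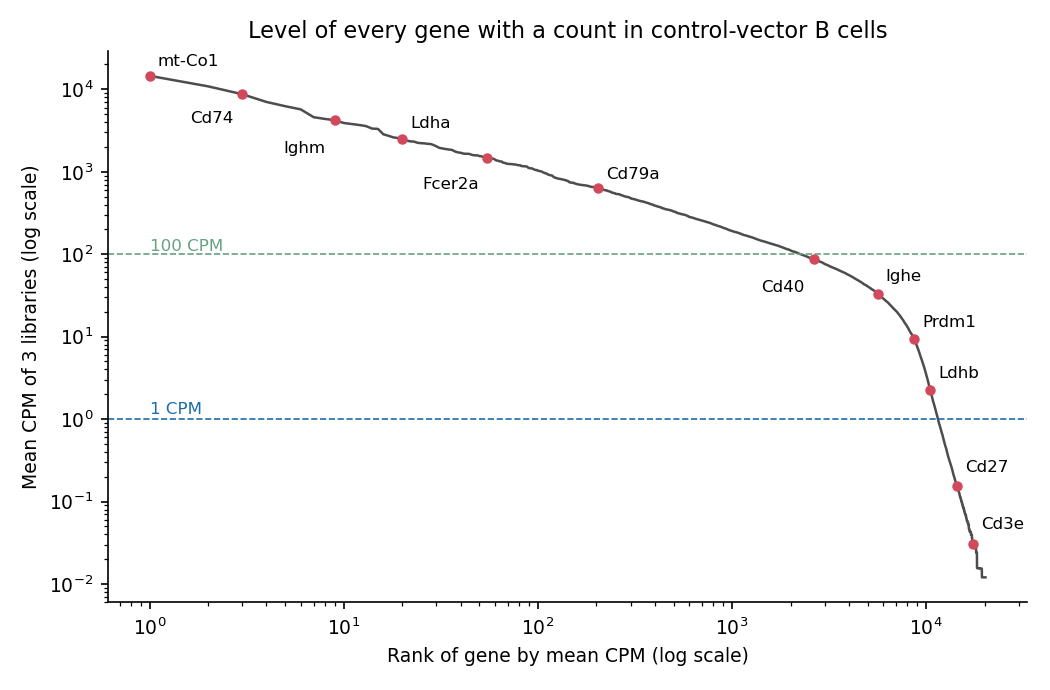
Rank of each gene with a count, from the highest mean level (horizontal axis, logarithmic), against mean CPM over the 3 libraries (vertical axis, logarithmic), with named genes marked and lines at 1 and 100 CPM. The 100 most counted genes took 21.1 to 22.6% of the counts, and the levels fall off towards the 17424 genes without a count, which a logarithmic axis cannot show.

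Whole families that belong to other tissues were silent or nearly so. None of 1251 olfactory receptors, 329 vomeronasal receptors, 38 taste receptors, 55 keratin-associated proteins, 42 beta-defensins, 21 major urinary proteins and 221 T cell receptor segments was expressed, against 29.7% of all genes. Of the olfactory receptors 1217 were silent, as were 320 of the vomeronasal receptors, 209 of the T cell receptor segments and all 21 major urinary proteins. Of 40 Hox genes 1 was expressed, of 19 Wnt ligands 1, of 51 keratins 2 and of 91 cytochrome P450 genes 6. The cell's common machinery was nearly complete. All 35 aminoacyl-tRNA synthetases were expressed, as were 80 of 83 cytosolic ribosomal proteins (each of the 80 abundant), 76 of 80 mitochondrial ribosomal proteins, 36 of 37 nuclear complex I subunits and 47 of 55 proteasome subunits. Of 2804 small nucleolar and nuclear RNAs 1 was expressed, and of 71 replication-dependent histone genes, whose messages lack a poly(A) tail, 24. Histone genes are near-identical copies, and their counts are uncertain. Alignments that were not unique counted for no gene, so low counts of the small RNAs do not show that the cells lacked them. The part of such alignments was not tested.

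Some family members went against the rest of their family. Scn4a, a voltage-gated sodium channel of muscle, stood at 107, 119.8 and 121 CPM, and Cldn25, of the claudin family of tight junction proteins, at 364.5, 355 and 324 CPM. Each was the 1 abundant member of its family, and no other gene of the reference overlapped either. Scn3a (39.3, 53.7 and 57.3 CPM) and Pcdhga9 (37.1, 29.0 and 32.1 CPM) overlap other genes, so their reads cannot be assigned with certainty. Of the mitochondrial genome's 37 genes 9 were expressed, against 29.7% of all genes, and all 9 were abundant. mt-Nd1 stood at 4116, 4357 and 5294 CPM and mt-Cytb at 3572, 3786 and 4350 CPM. mt-Co2 stood at 0.975, 1.48 and 0.747 CPM and mt-Co3 at 0.361, 0.923 and 0.373 CPM. The low values of mt-Co2, mt-Co3, mt-Atp6, mt-Nd3, mt-Atp8 and mt-Nd4l are uncertain. The table closes with a line of alignments that were not unique, 25.7 to 26.0% of its totals, which count for no gene, and their part in these values was not tested.

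All 4 markers of these cells were expressed. Cd79a, a signalling chain of the B cell receptor, stood at 535, 732 and 635 CPM, or 634 ± 98.4 (SD, n = 3). Fcer2a stood at 1484, 1143 and 1774 CPM, Ighg1 (the IgG1 constant gene) at 804, 912 and 741 CPM and Ighe (the IgE constant gene) at 39.1, 28.8 and 32.3 CPM. Cd79a, Fcer2a and Ighg1 were abundant in each library, and Ighe lay near the level of the median expressed gene. Cd79b, the other receptor chain, had 672, 874 and 758 CPM. Ms4a1, which encodes CD20, had 585, 736 and 744 CPM. The factors that maintain the lineage, Pax5 (166, 191 and 189 CPM) and Ebf1 (112, 136 and 112 CPM), were present throughout.

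All 28 listed B cell surface markers were expressed, 15 of them abundant, against 29.7% and 5.43% of all genes. Markers of activation stood beside those of identity: Cd44, an adhesion receptor, had 919, 741 and 782 CPM and Cd69, which holds lymphocytes in tissue, 473, 420 and 602 CPM. Cr2, the complement receptor CD21 of resting follicular and marginal zone cells, stood at 7.08, 7.75 and 8.73 CPM. Per kb the means were 120 for Cd44, 76.5 for Cd69 and 0.968 for Cr2.

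All 21 listed signalling chains and kinases of the antigen receptor were expressed, each at a mean of 23.7 CPM or more, against 29.7% of all genes. Plcg2, the phospholipase of the receptor, stood at 340, 337 and 330 CPM and Blnk, its scaffold, at 240, 218 and 228 CPM. Per kb, Cd79b (537) and Cd79a (435) lay above Grb2 (184), Plcg2 (78.1), Btk (28.1) and Syk (8.83). Among inhibitory coreceptors Cd22 (130) and the phosphatase Ptpn6 (136) were the highest in CPM per kb, and their libraries overlapped. Cd22 stood at 472, 848 and 647 CPM, lowest in replicate 1. Cd5, the marker of B-1a cells, stood at 1.55, 0.969 and 2.24 CPM and was not called expressed in every library.

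Of 91 matched markers of other cell types 17 were expressed, against 29.7% of all genes and 51.5% of protein-coding genes. Of the 91, 52 were low and 22 silent, against 46.3% of all genes and 24.1% of protein-coding genes that were silent. The abundant ones were Thy1 and Vim, the intermediate filament vimentin that leukocytes also express. The CD3 chain gene Cd3e and the T cell coreceptor genes Cd4 and Cd8a were at or near 0. Cd3e had 0, 0.0461 and 0.0467 CPM, Cd4 0, 0.0461 and 0 CPM and Cd8a 0.0722, 0.0461 and 0.0467 CPM. Thy1, a surface protein best known from T cells, had 200, 154 and 216 CPM, and the kinase Lck had 55.5, 58.7 and 59.1 CPM. Per kb the means were 63.5 for Thy1 and 19.7 for Lck, against 0.00758 for Cd3e, 0.00381 for Cd4 and 0.0151 for Cd8a. Of 10 neutrophil markers and of 10 mast cell and basophil markers none was expressed. S100a8 and S100a9, which mark neutrophils, had no count, nor had Cpa3, Mcpt8 and Fcer1a.

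Among macrophage markers, Lyz2, C1qa and Marco had at most 1 count in any library, and Csf1r, the receptor of their growth factor, had 0.722, 0.507 and 0.653 CPM. Emr1, which encodes F4/80, had 16.6, 19.9 and 17.7 CPM, and Cd68 had 18.8, 16.8 and 16.5 CPM. Among 9 listed dendritic cell genes 4 were expressed, against 29.7% of all genes but 51.5% of protein-coding genes. Their highest mean was 39.6 CPM. Zbtb46 (24.7, 17.9 and 22.4 CPM) and Flt3 (16.6, 14.1 and 9.29 CPM) were expressed, while Xcr1 and Siglech stayed under 0.26 CPM. The pre-B cell genes Rag1, Rag2, Dntt, Igll1 and Vpreb1 stayed under 0.15 CPM in each library. Of the 9 listed pro-B and pre-B genes, however, 2 were expressed, against 29.7% of all genes, and the highest mean was 32.6 CPM. The globin genes Hba-a1 and Hbb-b1 had no count, but as near-identical copies they are uncertain.

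IgM was the most abundant heavy chain message, with IgG1 next. Ighm stood at 1966, 2578 and 2157 CPM per kb, Ighg1 at 310.0, 352 and 286 and Ighe at 24.6, 18.1 and 20.4. Ighm thus made up 85.2, 87.1 and 87.2% of the summed CPM per kb of the 6 heavy chain constant genes measured, Ighg1 13.5, 11.9 and 11.6% and Ighe 1.07, 0.613 and 0.823%. These shares were 86.5% ± 1.09, 12.3% ± 1.01 and 0.835% ± 0.229 (SD, n = 3). The order was the same in all 3 libraries, with Ighm 6.34, 7.33 and 7.55 times Ighg1, and Ighg1 12.6, 19.4 and 14 times Ighe. The other IgG classes were low: Ighg2b had 7.69, 12.2 and 12.4 CPM, Ighg3 4.30, 8.49 and 7.0 CPM and Ighg2c 1.05, 6.28 and 3.88 CPM. Ighg2b, Ighg3 and Ighg2c together made up under 1% of the sum, and their sequences are alike enough that reads could be split among them. Counts of a constant gene include the sterile transcript that precedes switching, so they do not count switched cells. Igha and Ighd were not analysed here.

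**Figure D2:**
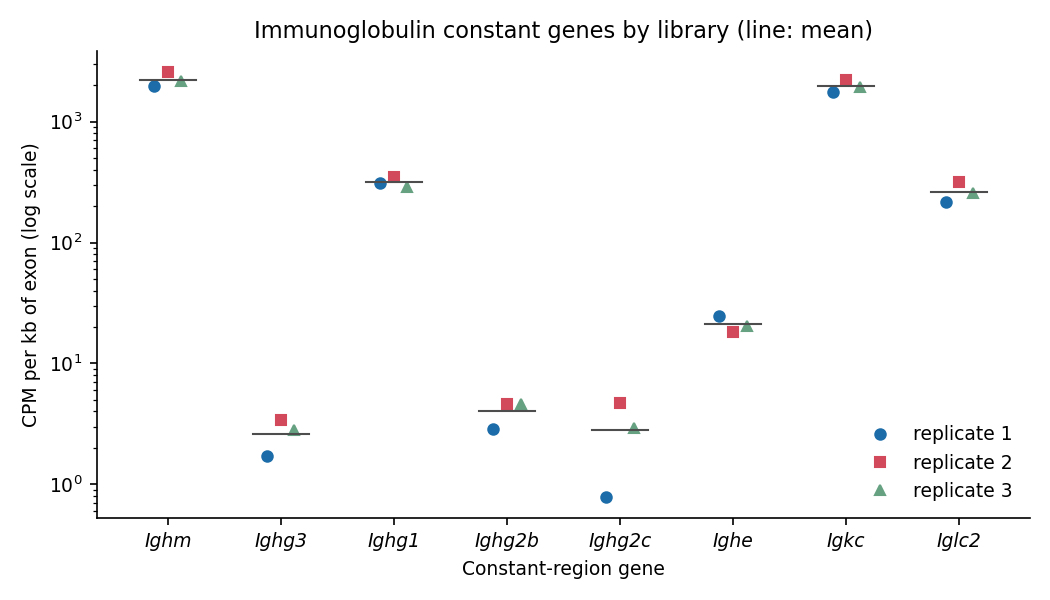
Immunoglobulin constant genes (6 heavy chain genes in the order of the locus, then Igkc and Iglc2) and their CPM per kb of exon in each library on a logarithmic axis, with a line at the mean. Ighm lies between 1966 and 2578 and Ighe between 18.1 and 24.6, and no library of one reaches the other.

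Light chain messages were led by kappa. Igkc stood at 937, 1176 and 1030 CPM, and Ighm was 1.1, 1.2 and 1.1 times Igkc in CPM per kb. Iglc2 had 133, 194 and 158 CPM and Iglc3 191, 232 and 204 CPM, a pair of near-identical lambda genes. Of 113 heavy chain variable segments 68 were expressed, and of 103 kappa segments 79, against 29.7% of all genes. None of either family was abundant, against 5.43% of all genes. Igj, the joining chain of secreted IgM, stood at 9.03, 47.1 and 15.2 CPM and was 3.09 times as high in replicate 2 as in the next library. The variable segments leaned the same way, being highest in replicate 2 for 65 of the 68 heavy chain segments, against 36.2% of expressed genes, and lowest in replicate 1 for 50, against 31.2%.

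The machinery of class switching was present nearly whole, with 43 of 46 genes expressed, against 29.7% of all genes. Ung, a glycosylase that removes uracil from DNA, had 71.5, 57.6 and 66.6 CPM, and Smug1, its relative, 2.56, 3.74 and 3.17 CPM. The mismatch repair gene Msh6 had 196, 187 and 191 CPM. In break response, Parp1 was at 622, 544 and 584 CPM, Trp53bp1, which protects broken ends, at 58.4, 52.6 and 54.5 CPM, and the end-joining ligase Lig4 at 5.02, 6.51 and 7.28 CPM. Rag1, Rag2 and Dntt, which act in V(D)J recombination and not in switching, were the 3 members not expressed.

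Cd40 stood at 91.1, 63.4 and 108 CPM. Of 25 TNF receptors 14 were expressed, against 29.7% of all genes and 51.5% of protein-coding genes. Tnfrsf13c, the BAFF receptor that keeps B cells alive, was at 265, 270 and 294 CPM, and per kb it was 4.84, 7.09 and 4.54 times Cd40. Tnfrsf13b, which encodes TACI, stood at 131, 140 and 126 CPM, while the plasma cell receptor Tnfrsf17 (BCMA) stayed under 0.14 CPM and Cd27 under 0.24 CPM. Tnfrsf8, which encodes CD30, had 127, 91.8 and 80.2 CPM. Tnfrsf1a and Ltbr stayed at 3 counts or fewer in each library. All 12 adaptors were expressed, led per kb by Tnfaip3 (52.5), the A20 brake on NF-κB, and Birc3 (48.3), which overlapped between libraries.

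All 16 listed NF-κB genes were expressed, against 29.7% of all genes, with none under a mean of 49.5 CPM. Nfkb1 stood at 998, 914 and 893 CPM and was 2.08, 2.15 and 2.07 times Rela per kb. Nfkb2, the subunit of the alternative pathway that CD40 engages, stood at 427, 248 and 440 CPM, and the inhibitor Nfkbia at 440, 208 and 400 CPM. Replicate 2 was the lowest in Nfkb2 and Nfkbia. Over the 16 genes it was lowest in 9 and highest in 5, against 39.2% and 36.2% of expressed genes. Over the 12 adaptors it was lowest in 5 and highest in 4, with Traf1 at 251, 137 and 201 CPM.

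All 9 listed IL-4 signalling genes were expressed. Il4ra, the chain that binds IL-4, stood at 983, 1452 and 1063 CPM, highest in replicate 2, and per kb it was 2.28, 3.39 and 2.2 times the common gamma chain Il2rg (171, 170 and 192 CPM). Stat6 stood at 190, 191 and 193 CPM. All 7 STAT genes and all 8 SOCS and CIS genes were expressed. Stat4, best known from T and NK cells, had 164, 215 and 132 CPM, and Socs2 had 434, 457 and 361 CPM, the highest of the SOCS genes per kb at 43.8. Of 20 listed targets of IL-4 19 were expressed and 9 abundant, against 29.7% and 5.43% of all genes. Il4i1, a secreted amino acid oxidase, stood at 888, 883 and 1184 CPM, but overlaps Atf5, Nup62 and Tbc1d17, so its reads cannot be assigned with certainty. Nfil3 stood at 274, 357 and 293 CPM and Pim1, a survival kinase, at 557, 467 and 471 CPM. Hgfac was the 1 listed target not expressed.

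Of 61 cytokine receptor genes 42 were expressed, against 29.7% of all genes. Of the 61, 6 were abundant, against 5.43% of all genes and 2024 of 20195 protein-coding genes. Il21r stood at 558, 427 and 501 CPM, Il9r at 216, 141 and 261 CPM and Il5ra at 218, 197 and 219 CPM, and Il7r, the receptor of early B cells, at 3.61, 2.31 and 3.13 CPM. Per kb the order was Il4ra (194), Il21r (149), Il2rg (74.6), Il5ra (59.1), Il9r (41.6) and Crlf2 (30.7), a chain of the TSLP receptor. Il4ra and Il21r overlapped between libraries, as did Il9r and Crlf2, and the other neighbours in this order did not. No other gene of the reference overlapped Il9r. Lifr had 12.8, 44.0 and 13.9 CPM, with replicate 2 3.16 times the next library. Il13ra2, Il20ra, Il22ra1 and Il17re had no count in any library.

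Among Toll-like receptors, Tlr7, which senses single-stranded RNA, was the highest, at 146, 175 and 152 CPM and 5.5, 6.34 and 4.71 times Tlr9 per kb. Tlr9, the sensor of unmethylated DNA, had 22.7, 23.5 and 27.5 CPM. Tlr12 stood at 45.5, 29.1 and 50.5 CPM, and Tlr1 at 32.6, 31.7 and 40.4 CPM. Tlr8 and Tlr11 had no count, and Tlr3 and Tlr5 stayed under 1 CPM. Unc93b1, which carries the nucleic acid sensors to endosomes, stood at 389, 457 and 465 CPM. Tmem173, which encodes STING, stood at 244, 229 and 245 CPM.

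Of 20 chemokine receptors 9 were expressed, against 29.7% of all genes but 51.5% of protein-coding genes. Cxcr5, which guides B cells to follicles, stood at 223, 188 and 201 CPM. Cxcr4 had 127, 92.1 and 186 CPM and Ccr7, which guides cells to the T cell zone, 132, 70.6 and 160 CPM; both were lowest in replicate 2 and highest in replicate 3. Gpr183, the oxysterol receptor EBI2, had 256, 202 and 265 CPM. S1pr1, the exit receptor, stood at 8.70, 23.2 and 18.4 CPM, with replicate 1 more than 2-fold below the others. Of the integrins 13 of 26 were expressed, near the 51.5% of protein-coding genes. They were led per kb by Itgb2, the beta chain shared by leukocyte integrins, ahead of Itgb1 (24.9) and Itgal (21.8). Itgb3, the beta chain of the vitronectin receptor, stood at 82.1, 142 and 72.3 CPM, highest in replicate 2.

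Of 14 class II genes 13 were expressed and 9 abundant, and all 11 class I genes measured were expressed, against 29.7% and 5.43% of all genes. H2-Aa stood at 1954, 2430 and 2347 CPM, H2-Ab1 at 1933, 2272 and 2338 CPM and H2-Eb1 at 1478, 1727 and 1752 CPM. Replicate 1 was the lowest in these 3 genes, and in all 13 expressed class II genes, against 31.2% of expressed genes. The class II transactivator Ciita had 211, 230 and 242 CPM. H2-Ob, a chain of the DO molecule that limits peptide loading, had 305, 434 and 376 CPM, and per kb it stood at 69.0 against 850 for H2-Eb1. H2-Ea-ps, an inactive copy in this strain, stayed under 0.37 CPM. B2m, the class I light chain, stood at 1460, 1786 and 1633 CPM.

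Costimulatory genes were uneven. Cd83, a marker of activated antigen-presenting cells, stood at 692, 687 and 760 CPM, Cd80 had 21.4, 11.5 and 15.4 CPM and Cd86 18.3, 37.6 and 21.5 CPM. The inhibitory ligand Cd274 (PD-L1) had 32.2, 63.8 and 54.9 CPM. Icosl, the ligand of the T cell receptor ICOS, had 24.1, 8.44 and 32.3 CPM, with replicate 2 below the next library by 2.85-fold. Cd80 and Icosl were lowest and Cd86 and Cd274 highest in replicate 2. Btla, an inhibitory receptor, had 160, 210 and 165 CPM, and Ctla4, best known from T cells, 22.2, 36.1 and 12.4 CPM.

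Of 35 interleukins and growth factors 9 were expressed, and of 29 chemokines 3, against 29.7% of all genes. Ccl22, which attracts T cells, stood out at 559, 180 and 470 CPM, with replicate 2 2.62-fold below the next library. Tgfb1 had 217, 231 and 220 CPM, Il16 142, 155 and 144 CPM, Csf1 102, 92.7 and 106 CPM and Ebi3, a subunit of IL-27 and IL-35, 68.4, 49.1 and 61.1 CPM. Il6 stood at 1.81, 2.44 and 2.05 CPM, and Il10 at 0.686, 0.923 and 1.45 CPM. Il4, Il13, Il3, Il9, Il17a and Ifnb1 had no count. Ltb, which builds lymphoid tissue, had 151, 128 and 184 CPM and Tnf 8.85, 10.7 and 22.0 CPM, over 2-fold higher in replicate 3.

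Of 30 factors of B cell identity 27 were expressed and 17 abundant, against 29.7% and 5.43% of all genes. Pou2af1, the B cell coactivator OBF-1, was the highest per kb at 724 and stood at 1874, 2038 and 1623 CPM. Spib had 271, 256 and 286 CPM, Foxo1 225, 227 and 207 CPM and Mef2c 1100, 1114 and 1082 CPM. Mef2b, a germinal centre factor, had no count. Bcl6, which drives the germinal centre, had 32.9, 44.1 and 38.6 CPM, and Bach2, which holds back the plasma cell, 79.3, 77.8 and 70.8 CPM. Prdm1, which encodes the plasma cell factor Blimp-1, had 9.64, 8.40 and 10.3 CPM. Per kb Bach2 was 4.62, 5.20 and 3.87 times Prdm1.

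Plasma cell genes spanned a wide range of levels. Xbp1, the factor of the secretory programme, stood at 401, 523 and 437 CPM, and per kb it was 71.4, 107 and 73.1 times Prdm1. Mzb1, a chaperone of antibody assembly, had 507, 583 and 481 CPM and Slamf7 371, 293 and 346 CPM. Sdc1, which encodes the plasma cell marker CD138, had 7.55, 7.15 and 9.62 CPM. Irf4, which promotes switching at low and plasma cells at high levels, had 644, 330 and 405 CPM, and Irf8 479, 595 and 550 CPM. Irf8 over Irf4 per kb was 0.517, 1.25 and 0.945 in replicates 1 to 3, so the order of these factors was not the same in all libraries.

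At the time of the sort, 96 h, all 21 early response genes were expressed and 10 abundant, against 29.7% and 5.43% of all genes. Egr1 had 648, 675 and 891 CPM and Egr2 651, 631 and 598 CPM, while Egr3 had 18.2, 30.3 and 15.3 CPM. Jund had 900, 928 and 902 CPM, Junb 695, 572 and 696 CPM and Fos 302, 330 and 503 CPM. Batf, a partner of IRF4, had 147, 130 and 119 CPM and Batf2 stayed under 0.11 CPM. Myc, a transcription factor of cell growth, had 497, 324 and 387 CPM, and its relative Mycn stayed under 0.3 CPM. Myc was lowest in replicate 2, as were Irf4 and Ccnd2.

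Of 85 matched cell cycle genes 79 were expressed and 39 abundant, against 29.7% and 5.43% of all genes, and all 27 replication and all 24 mitosis genes were expressed. Mki67, the proliferation antigen, had 553, 704 and 801 CPM, Top2a 675, 693 and 792 CPM and Mcm6, a subunit of the replicative helicase, 686, 589 and 580 CPM. Ccnb1 and Cdc20, whose promoters are shown above, had 126, 99.6 and 118 CPM and 164, 123 and 146 CPM. Of the D cyclins, Ccnd2 (538, 335 and 408 CPM) was above Ccnd3 (139, 132 and 154 CPM) by 3.60, 2.36 and 2.47 times per kb, and Ccnd1 stayed under 0.4 CPM. Cdk4 had 348, 292 and 361 CPM, and Cdk6 9.57, 9.23 and 10.9 CPM. The inhibitor Cdkn1a, which encodes p21, had 118, 59.7 and 94.5 CPM.

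In the survival family, Mcl1 was the highest per kb at 172 and stood at 619, 564 and 579 CPM. Per kb it was 19.3, 18.1 and 18.2 times Bcl2 (86.1, 83.3 and 85.1 CPM). Bcl2l1, which encodes the CD40 target BCL-xL, had 167, 67.1 and 121 CPM, lowest in replicate 2. Bcl2a1b and Bcl2a1d are near-identical copies, and their values are uncertain. Of the killers, Bcl2l11 (BIM) had 133, 155 and 132 CPM, Bax 173, 146 and 146 CPM and Pmaip1 (NOXA) 118, 84.7 and 103 CPM. Hrk and Bok were not expressed.

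Of 30 enzymes of glycolysis 22 were expressed, and of 11 transporters 8, against 29.7% of all genes. Ldha, the lactate dehydrogenase of glycolytic cells, stood at 2703, 2172 and 2575 CPM, and Ldhb at 3.65, 1.06 and 2.10 CPM. Per kb Ldha was 352, 971 and 582 times Ldhb, and Ldhc had no count. Eno1 (1478, 1367 and 1387 CPM) was 49.4, 48.6 and 39.4 times Eno3 per kb. Pklr and Gapdhs stayed under 0.2 CPM. Among glucose transporters Slc2a6 (268, 222 and 260 CPM) was above Slc2a1 (168, 158 and 245 CPM) by 1.74, 1.53 and 1.16 times per kb, with a slight overlap between libraries, and Slc2a1 above Slc2a3 (107, 103 and 115 CPM). Slc2a2 and Slc2a5 were not expressed. No other gene of the reference overlapped Slc2a6.

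**Figure D3:**
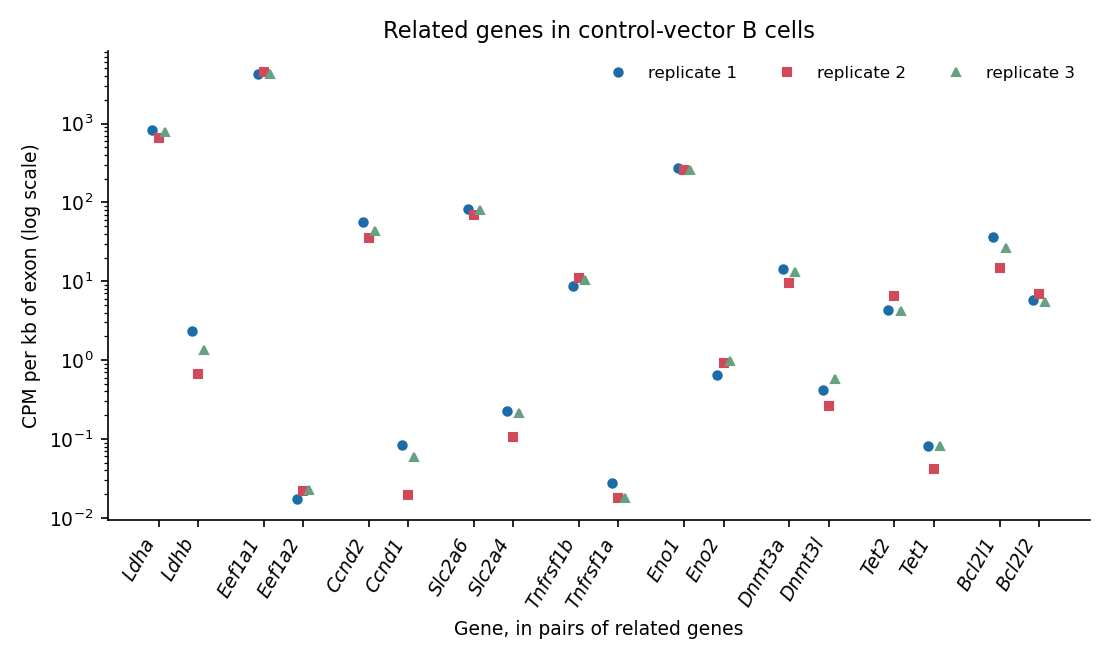
Pairs of related genes along the horizontal axis, with the level of each of the 3 libraries as a point on a logarithmic axis of CPM per kb of exon. In CPM per kb, Ldha lies 352 to 971 times above Ldhb, a gap larger than the distance between libraries of either gene.

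All 22 listed genes of the pentose phosphate and nucleotide pathways were expressed, 29 of 30 of the TCA cycle and 17 of 20 of serine and one-carbon metabolism, against 29.7% of all genes. Phgdh, the first enzyme of serine synthesis, stood at 245, 204 and 251 CPM and Shmt2, which makes one-carbon units in mitochondria, at 444, 368 and 459 CPM. Gldc, of glycine cleavage, stayed under 0.24 CPM, and Pck1, of glucose synthesis, under 0.1 CPM. Of 24 sterol genes measured 23 were expressed: Srebf2, the master regulator, had 513, 497 and 547 CPM, and Sqle, which oxidises squalene, 190, 163 and 198 CPM. In these 23 genes replicate 2 was lowest in 19, against 39.2% of expressed genes, and replicate 3 highest in 20, against 28.2%; it was lowest in none, against 29.6%.

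Of the fatty acid genes 12 of 19 were expressed, against 29.7% of all genes. Scd2 stood at 1226, 1095 and 1500 CPM and Scd1 at 600, 698 and 684 CPM. Both are desaturases, whereas Scd3 and Scd4 stayed under 0.4 CPM. Of 16 fatty acid oxidation genes 11 were expressed. Cpt1a, which brings fatty acids into mitochondria, had 19.4, 32.7 and 18.0 CPM and Ppara had no count. Ucp2, a mitochondrial carrier, had 786, 822 and 802 CPM. Among 30 amino acid transporters 18 were expressed, led per kb by Slc7a5 (69.8) and Slc1a5 (68.4), of large neutral amino acids and of glutamine, which overlapped between libraries. Odc1, the first enzyme of polyamines, had 350, 291 and 286 CPM, and Srm, spermidine synthase, 201, 110 and 175 CPM. Arg1 and Arg2 stayed under 0.3 CPM.

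Translation genes took a large part of the counts, with cytosolic ribosomal proteins at 8.23, 8.91 and 8.40%. All 23 listed genes of ribosome biogenesis were expressed, against 29.7% of all genes. Ncl, nucleolin, had 2332, 2050 and 2280 CPM, Npm1 2226, 1967 and 2136 CPM and Mybbp1a 581, 382 and 513 CPM. In all 23 replicate 2 was the lowest library, against 39.2% of expressed genes, and in 22 replicate 1 was the highest, against 35.6%. The cytosolic ribosomal proteins had another order: replicate 2 was highest in 71 of 80, against 36.2%, and replicate 1 lowest in 59, against 31.2%.

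Of 29 genes of folding in the endoplasmic reticulum 28 were expressed and 22 abundant, against 29.7% and 5.43% of all genes. Hspa5, the chaperone BiP, had 1673, 1626 and 1706 CPM and Calr, calreticulin, 1820, 1572 and 1708 CPM. Ern1, the kinase that splices Xbp1, had 8.09, 8.77 and 8.45 CPM, and its intestinal relative Ern2 was at 1 count in 1 library. Ddit3, the stress factor CHOP, had 19.9, 28.7 and 34.7 CPM.

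Of 40 chromatin enzymes 38 were expressed, against 29.7% of all genes. Dnmt1, the maintenance methyltransferase, had 355, 320 and 358 CPM, and per kb it was 18.0, 18.1 and 17.7 times Dnmt3b. Of the oxidases that remove DNA methylation, Tet2 (73.3, 110 and 71.0 CPM) and Tet3 (72.4, 72.5 and 63.3 CPM) were expressed, and Tet1 (1.26, 0.646 and 1.26 CPM) was not in every library. Ezh2, of Polycomb, had 298, 260 and 282 CPM and its relative Ezh1 29.3, 37.2 and 32.6 CPM.

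Of 30 listed interferon response genes 26 were expressed, against 29.7% of all genes, and 2 were abundant, near the 5.43% of all genes. Their median was 11.1 CPM. Isg15 had 7.04, 8.07 and 16 CPM, Ifit1 2.27, 2.77 and 8.45 CPM and Rsad2 2.35, 2.95 and 5.37 CPM, with replicate 3 highest in each. Oas2 (5.45, 11.1 and 5.32 CPM) and Ifi27l2a (77.8, 143 and 71.7 CPM) were highest in replicate 2 instead. Over the 26 expressed genes replicate 1 was lowest in 18, against 31.2% of expressed genes, and replicate 2 highest in 16, against 36.2%, and lowest in none.

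Of the Sox family 3 of 19 genes measured were expressed, against 29.7% of all genes. Sox4 had 41.6, 29.2 and 45.8 CPM, Sox12 19.6, 21.4 and 19.6 CPM and Sox13 1.23, 1.06 and 1.26 CPM. Sox2, the gene whose vector the series compares with this control, had 0.722, 0.323 and 1.73 CPM and was not expressed by the rule. Sry, Sox10, Sox14 and Sox18 had no count.

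Between libraries most genes differed little. The common biological coefficient of variation, an estimate of the spread beyond counting error, was 12.1% over 12154 genes. The median SD over the mean was 17.3% for genes at 1 to 3 CPM and 6.23% for genes at 1000 CPM or more. The SD predicted from counting alone had medians of 15% and 0.531% of the mean. It is predicted from the counts of each gene and not observed over 3 libraries, so the measures are not fully alike. Below 10 CPM the spread lay nearer to that prediction than above 100 CPM, where the libraries differed by more than counting gives. Replicates 1 and 3 were the most alike. Among 9539 expressed genes with a mean of 5 CPM or more, 159 (1.67%) differed by more than 1.5-fold between replicates 1 and 3, against 499 (5.23%) between 1 and 2 and 409 (4.29%) between 2 and 3. The correlation of log levels, across genes that are not independent replicates, was 0.993, 0.985 and 0.987 for these pairs.

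**Figure D4:**
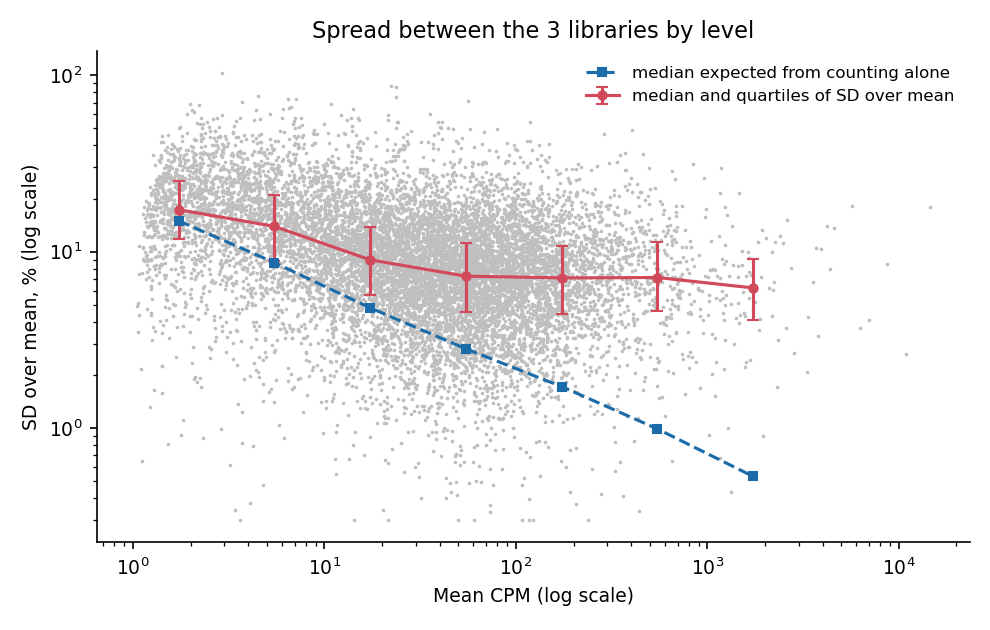
SD over the mean of the 3 libraries in percent (vertical axis, logarithmic) against mean CPM (horizontal axis, logarithmic), with expressed genes as grey points. Red shows the median and quartiles by level, and blue the median SD over the mean predicted from counting error alone. The red median goes from 17.3% at 1 to 3 CPM to 6.23% at 1000 CPM or more, where the prediction is 0.531%. Values under 0.3% are drawn at 0.3%.

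Single genes in which 1 library stood apart were few. Among 9540 genes with a mean of 5 CPM or more, a library was over 2-fold above or below both others in 55. Replicate 1 was above in 2 (0.0210%) and below in 3 (0.0314%), replicate 2 above in 26 (0.273%) and below in 20 (0.210%), and replicate 3 above in 4 (0.0419%) and below in 0 (0%). Replicate 2 accounted for 46 of these 55. Its largest excesses were in Serpinb1a (8.92, 44.3 and 13.4 CPM), Lifr, Igj and Plac8 (33.6, 102 and 32.1 CPM). Its largest deficits were in Lpl (11.3, 0.877 and 9.76 CPM), Igsf3 (31.1, 8.91 and 32.1 CPM) and Ttn (8.34, 2.58 and 9.76 CPM). Replicate 3 stood above the others in Fzd7 (3.83, 4.38 and 13.2 CPM), Gpr56 (9.97, 7.84 and 24.6 CPM), Tnf and Cxcr7.

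Gene groups differed among the libraries as groups. Replicate 2 was lowest in 24 of 27 replication genes, in 16 of 24 mitosis genes and in 61 of 79 cell cycle genes, against 39.2% of expressed genes. Replicate 1 was the highest in 40 of 47 proteasome subunits and in 56 of 76 mitochondrial ribosomal proteins, against 35.6%. All 9 expressed genes of the mitochondrial genome were lowest in replicate 1, against 31.2% of expressed genes, and highest in replicate 3, against 28.2%. After TMM scaling, edgeR's adjustment of library sizes, 8 of the 9 were highest in replicate 3 and 1 in replicate 2. The mitochondrial genome's share of the counts was 3.23, 3.99 and 4.35%. Genes of a group are not independent of each other. The columns of replicates 1 to 3 carry the numbers 8, 9 and 12, which recur on the pMIR-Sox2 columns. What they number is not stated and no batch is named, so where these orders come from was not tested.

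**Figure D5:**
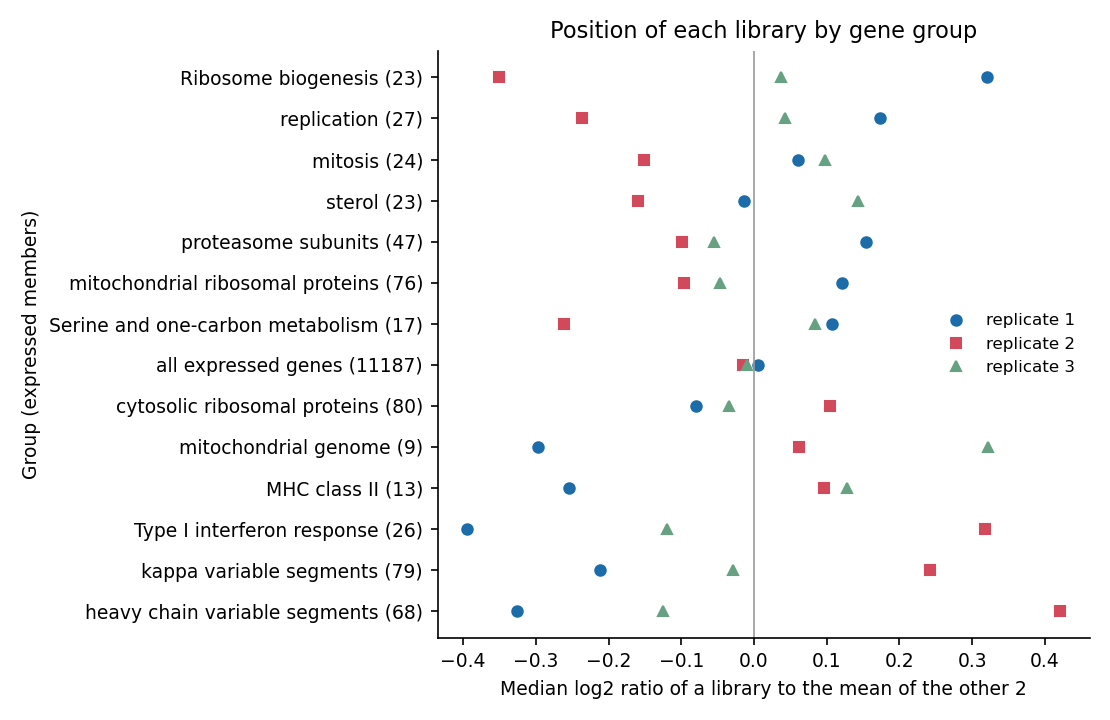
Gene groups, with the number of expressed members, against the median log2 ratio of a library to the mean of the other 2, one point per library. Ribosome biogenesis (0.32 in replicate 1 against -0.35 in replicate 2) lies apart from the cytosolic ribosomal proteins, which are highest in replicate 2.

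Promoter sequence went with the level of a gene, as a description. Median G+C was 45.6% in windows of silent genes, 56.0% in genes that were low, 59.8% in expressed genes below the abundant level and 61.2% in abundant genes. The ratio of CpG found to that predicted from base composition was 0.189, 0.425, 0.730 and 0.797 in the same order. TATAAA was found, on both strands, in 21.6% of windows of silent genes and 5.92% of abundant genes, against 12.4% of all windows. CACGTG, the letters of the E box that MYC binds, was found in 4.00% and 9.64%, against 6.02%. It holds a CpG, and the other searched motifs with a CpG rose as well. The NRF1 site was found in 1.08% and 13.5%, against 4.98%, and the ETS site in 0.635% and 5.37%, against 2.88%. The CREB site was found in 0.789% and 2.68%, against 1.55%. The part of base composition in these shares was not tested. CCAAT differed little, at 35.2% and 37.0%, against 33.9%. Gene by gene the ratio could go another way: Cd79a (0.278), H2-Aa (0.190) and H2-Eb1 (0) were abundant and had few CpG, and Ldhb (0.717) had about the same ratio as Ldha (0.691). Eef1a1 (0.652) and Eef1a2 (0.267) followed the order of their levels.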

How the data were processed

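The deposited table gives raw read counts per Ensembl gene as the authors made them, 1 column per library. The submitters' processing notes name build mm9, HTSeq 0.6.1p1 for an unstated role, SAMtools 0.1.19, the aligners Bowtie2 2.2.2 and TopHat2 2.0.11, and Trimmomatic 0.32. Annotation release and strand setting are not given in the sources used here. Left out of library sizes were 5 closing lines without a gene: alignments not unique (25.7 to 26.0% of totals), in no feature (11.4 to 13.1%), not aligned (8.55 to 9.65%), ambiguous (0.283 to 0.307%) and too low in quality (0).

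CPM are gene counts over the library's gene counts. CPM per kb used exon-union lengths of GENCODE M21 on GRCm38, another build than mm9, which held 32897 of 37620 identifiers. Coordinates of that reference served for these lengths and for the overlaps between genes. An overlap was called between whole gene spans, introns included and on either strand, so overlapping genes need not share exons. The overlaps thus hold on GRCm38 and were not checked on mm9. Promoter windows are RefSeq's. The biological coefficient of variation came from edgeR 4.0.16 (R 4.3.3) with an intercept only. It was tested on simulated data without raised genes, where true values of 5, 10 and 20% gave 5.01, 9.91 and 20.1%. In separate draws 200 genes were raised 4-fold in 1 library. There the 2-fold rule for standing apart found 200, 200 and 195, with 0 false calls. Every gene in a draw had the same spread and genes were drawn independently, so the draws do not give the rule's error in the real libraries. DESeq2 1.42.0 served as an alternative.

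Genes named are members of the 38 lists and 40 families, the 20 of highest mean CPM and those in which a library stood apart. Members, lists and tests were chosen with earlier results of these data known. Of 1164 listed symbols 9 were not analysed here. Values of some listed genes are not reported here.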

Additional observations from a re-analysis of the deposited data

How the results depend on the processing

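No paired analysis was possible because no groups were compared. The number of expressed genes was 12025 at 0.5 CPM, 9318 at 5 CPM and 11175 in libraries thinned to the shallowest depth, and silent genes numbered 17611 after thinning. With immunoglobulin and mitochondrial genes left out, the 100 most counted genes took 19.6% of the counts, against 22.0%. Genes in which a library stood apart numbered 342 at 1.5-fold and 152 at a mean of 1 CPM, against 55. The median of listed genes was 10.6 CPM per kb with the longest transcript as length, against 8.26. The median CpG ratio of genes at 1 CPM or more was 0.761 at 5 CPM, against 0.744. Leaving out each replicate in turn, the coefficient of variation ran from 8.96% (without replicate 2) to 14.1%, against 12.1%, and the CpG ratio from 0.742 to 0.744. Levels near 1 CPM are limited by depth.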

Other observations

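Among the deposited gene symbols 25 read as dates, and these genes were followed by their Ensembl identifiers alone.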
